A study of Olea europaea with 36 samples.

Results

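Active shoot tips of the olive variety Arbosana were compared with those of the variety Arbequina, on 3 arrays each, 6 of the 36 arrays of the series. The 6 arrays were chosen by their titles alone, and all 37449 contigs of the array (assembled transcript sequences of olive, read by 60-mer probes) entered the comparison. Each array gives 1 intensity per contig, which the authors normalized and deposited on a linear scale. The other 30 arrays belong to the varieties Picual (active and dormant tips) and Chiquitita, a Picual × Arbequina selection, and to 7 seedling pools. The pools ChiCa (Chiquitita-like canopy), simple branching and complex branching come from Chiquitita × Arbosana. The pools SILe and LILe (short and long internodes) and SmaD and LarD (small and large trunk diameter) come from Picual × Arbequina. No group carries a transgene or a treatment, and all trees grew in the field in Cordoba.

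Arbequina and Arbosana are both olive varieties of restrained growth. Both were sampled as adult trees at the end of spring, from the growing tips of shoots with the shoot apical meristem inside. The replicates of a variety are separately harvested shoot samples, taken from a single individual per sample. The p-values below therefore measure the spread between shoot samples, which need not come from different trees. The shoot apical meristem holds a small pool of stem cells and places new leaves and axillary buds, and so the rate and pattern of its activity shape the canopy. In Arabidopsis the size of that pool is held by chromatin remodellers, receptor kinases and transcriptional co-repressors, while gibberellin, brassinosteroid and auxin set how far the stem below it elongates. The files name no contig beyond 14 that the study tied to Arabidopsis genes or described without a name, so the shoot tip label could not be checked against marker genes. In such bulk tissue, fewer cells of a type and less RNA per cell cannot be told apart.

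The transcripts that carry the named differences are identified here by the primer pairs with which the study measured them by RT-qPCR. Of its 12 olive pairs, the 8 that belong to contigs called between Arbosana and Arbequina are shown, 5′ to 3′ and in lower case throughout. No genome of this assembly was used, so positions of these contigs are not given.
SYD (Contig_67514), forward: ggctgctctccaatgttctc
SYD (Contig_67514), reverse: aaaggaggctaaggtgttgga
TPR1 (Contig_50371), forward: tgatctatgtccagtgcttctagg
TPR1 (Contig_50371), reverse: ggaaaggtacttattggcattcac
SPY (Contig_10295), forward: attgatacagagggccaacg
SPY (Contig_10295), reverse: cggcaacactgagattttga
SCL30 (Contig_17106), forward: tggtaccacttacgggaagg
SCL30 (Contig_17106), reverse: ggatcatcggagaaattagcc
SVP (Contig_35467), forward: tgccagctccagcatgaaggacata
SVP (Contig_35467), reverse: actgtcctcgactagctgcttcgg
SAL1 (Contig_44917), forward: ttccacggtcaatggcatcgagc
SAL1 (Contig_44917), reverse: gaaacccgaggaacactagtgcgc
Contig_15512, forward: caattgaagtgggttgtgctt
Contig_15512, reverse: aacaatcaattccacgagcag
Contig_29050, forward: cttgctgctgtagttgagccta
Contig_29050, reverse: attcgcgatatgtgtgattctg

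The Arbosana arrays were less alike than the Arbequina arrays. Across all contigs, Pearson's r of the log2 intensities was 0.962 to 0.972 within Arbosana, 0.984 to 0.992 within Arbequina and 0.929 to 0.966 between the varieties. The median SD of a contig over the 3 arrays was 0.37 on the log2 scale in Arbosana and 0.22 in Arbequina, and 70.9% of contigs had the larger SD in Arbosana. Arbosana replicate 3 was the array closest to the other variety. On the contigs called without it, its median position was 0.458 on a line from Arbosana (0) to Arbequina (1), while Arbosana replicates 1 and 2 stood at 0.282 and -0.0496 and the Arbequina arrays between 0.729 and 1.00. On contigs at least 8-fold apart between the remaining arrays, it still lay on the Arbosana side for all but 9 of 75, and each of the other 5 arrays was on its own side for all but 0 to 4 of 50 to 62.

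Among the 30 other arrays, 2 were checked against their labels and went against them. The rest were not put through this check. On 46 contigs that were at least 8-fold apart between the remaining 2 Chiquitita and the remaining 2 simple branching arrays, the array labelled Chiquitita replicate 1 was nearer to simple branching on 46, and the array labelled simple branching replicate 3 was nearer to Chiquitita on 45. The first correlated at 0.986 to 0.987 with the other simple branching arrays and at 0.954 to 0.981 with the other Chiquitita arrays. The second correlated at 0.977 to 0.987 with the other Chiquitita arrays and at 0.962 to 0.968 with the other simple branching arrays. Neither enters the test between Arbosana and Arbequina. Both were kept under their labels, and the main results that rest on them are also given without them. This check was made after the values were seen. SILe replicate 3 also stood apart from its group, and SmaD replicates 2 and 3 are titled as SmaD while a second label calls them short internodes.

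In Arbosana against Arbequina, 2690 contigs (7.18% of all) differed by at least 2-fold at an adjusted p under 0.05 (limma, Benjamini-Hochberg over all contigs). Such contigs are called here. Of them 1323 were higher (3.53%) and 1367 lower (3.65%) in Arbosana. A further quantile normalization of the intensities gave 1809 higher and 1302 lower, and median centring gave 1485 and 1478. The median fold of a call was 2.76 among the higher and 2.89 among the lower contigs. Large differences were more often losses in Arbosana: 194 higher and 311 lower contigs passed 4-fold (235 and 254 after the further quantile normalization), 36 and 80 passed 8-fold, and 12 and 33 passed 16-fold. For all 2690 every array of one variety lay above every array of the other, which also held for 12478 of all contigs (33.3%). The median difference over all contigs was -0.06 on the log2 scale. Without the fold minimum 2922 contigs passed (7.8%), and 10310 had an unadjusted p under 0.05 (27.5%).

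**Figure D1:**
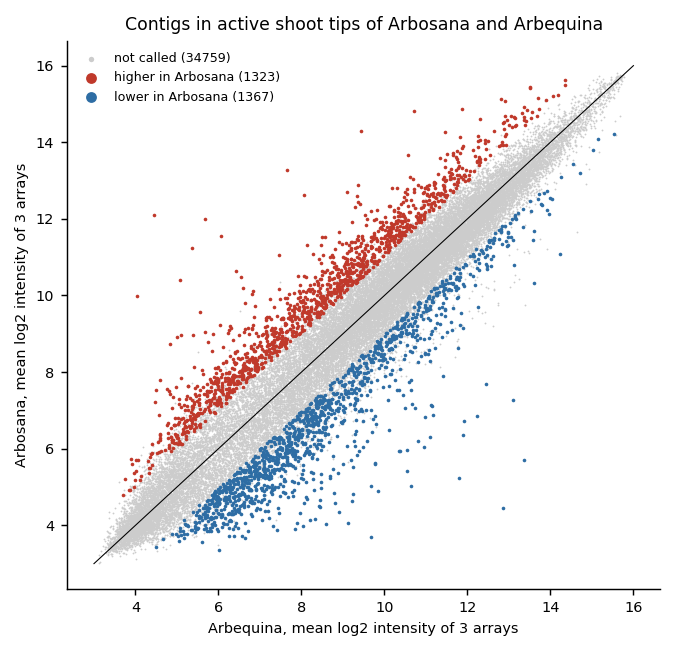
Mean log2 intensity of the 3 Arbosana arrays (vertical) against that of the 3 Arbequina arrays (horizontal), 1 point per contig, with the line of equality. Of the 37449 contigs, 1323 (red) were called higher and 1367 (blue) lower in Arbosana, and the blue points reach farther from the line.

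The number of calls depended on single arrays. It was 356 without Arbequina replicate 1 and 424 without Arbequina replicate 3, against 5223 without Arbosana replicate 3. It was 1145 without Arbosana replicate 2, 2058 without Arbequina replicate 2 and 2607 without Arbosana replicate 1. Called in the same direction in all 6 of these fits were 321 contigs, 144 higher and 177 lower in Arbosana, with a median fold of 5.59. Calls were most frequent among contigs of low to middle intensity, with 8.55%, 11.0%, 5.97% and 3.18% called over 4 equal groups of contigs from the lowest to the highest mean intensity.

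Of the 14 contigs named in the study, 8 were called between Arbosana and Arbequina, 4 in each direction. The study had chosen 12 of the 14 for a difference between Chiquitita and Arbosana on the same Arbosana arrays. It also reports such a difference for the others, CLV1 and EDL2. The count over the 14 is therefore not independent evidence of an Arbosana pattern. The share called over all contigs was 7.18%. Gene names are those of the putative Arabidopsis orthologs, and the roles given are known from Arabidopsis.

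Of the 3 stem cell regulators, SYD rose, TPR1 fell and CLV1 was not called. SYD (Contig_67514), the chromatin-remodelling ATPase SPLAYED that keeps the stem cell gene WUSCHEL active, had intensities of 4036, 5891 and 7375 in Arbosana and 737, 415 and 913 in Arbequina. All Arbosana arrays lay far above the Arbequina arrays, a log2 difference of 3.10 ± 0.35 (SE, adjusted p = 0.00389 from limma). In Picual, 2 of the 3 arrays were at 318 and 560 and the remaining one at 7450.4. TPR1 (Contig_50371), a TOPLESS-related co-repressor, had 26.3, 19.7 and 18.7 in Arbosana and 59.6, 64.1 and 61.3 in Arbequina. By mean intensity over both varieties it was among the lowest 25% of contigs, so its fold is uncertain in size. Arbosana was below all 30 arrays of the other groups, whose lowest was 37.3, and the difference from Arbequina was -1.53 ± 0.22 (adjusted p = 0.00915 from limma). CLV1 (Contig_43041), the receptor kinase that limits the stem cell pool, had 5183, 4031 and 6317 in Arbosana and 6226, 6279 and 4276 in Arbequina, with overlapping arrays. Its difference of -0.11 had a 95% interval from -0.73 to 0.50. SYD kept its call with any 1 array left out, but lost it in one fit over the 12 arrays of the varieties (adjusted p = 0.052 from limma) or all 36 arrays (adjusted p = 0.0579) and with a covariate for the main direction along which replicates of 9 other groups differ (adjusted p = 0.0543). TPR1 lost its call without Arbequina replicate 1 (adjusted p = 0.0595 from limma) and without Arbequina replicate 3 (adjusted p = 0.0612).

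**Figure D2:**
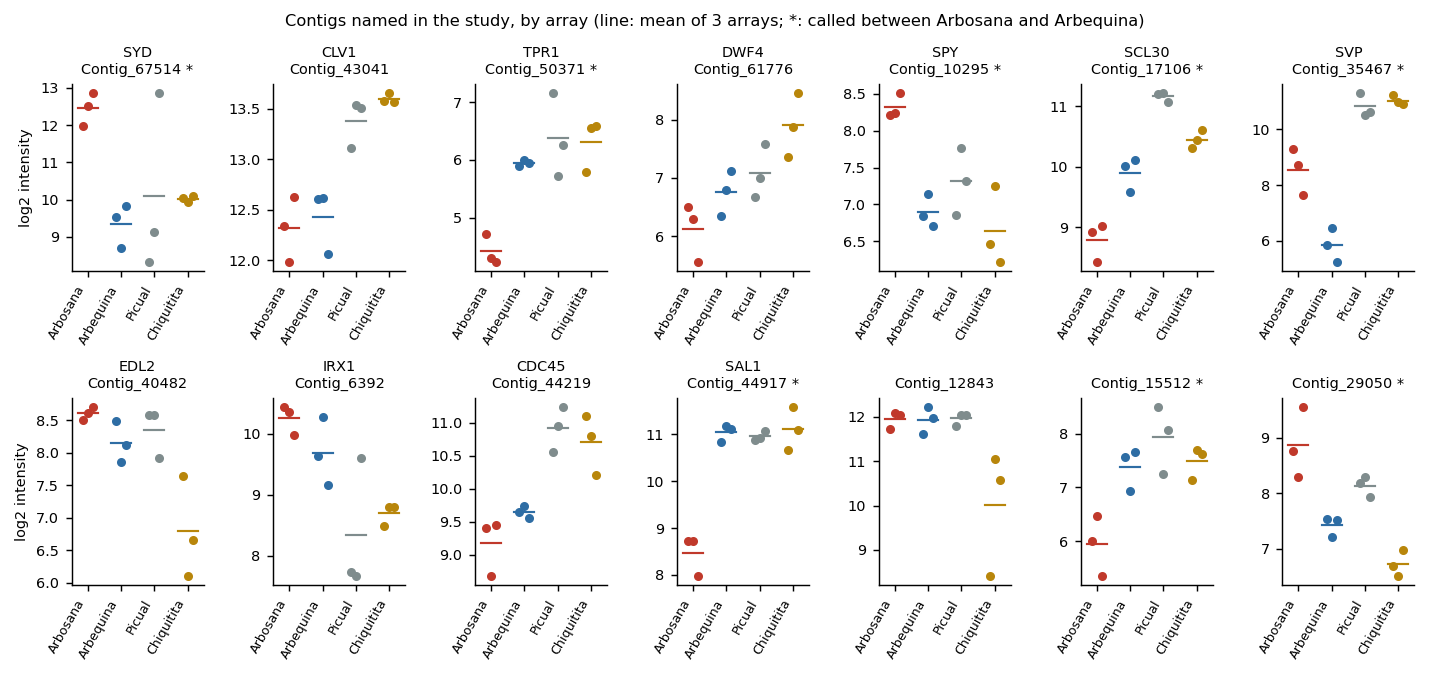
Log2 intensity of the 14 contigs named in the study on each array of Arbosana, Arbequina, Picual and Chiquitita, in replicate order, with lines at the means of 3 arrays and a star on the 8 contigs called between Arbosana and Arbequina. Each panel has its own vertical range, and in SVP both Arbosana and Arbequina lie below Picual and Chiquitita.

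Of the 3 hormone genes, SPY rose, SCL30 fell and DWF4 was not called. SPY (Contig_10295), the repressor of gibberellin signalling SPINDLY, had 296, 303 and 365 in Arbosana against 115, 142 and 105 in Arbequina, without overlap. The difference was 1.42 ± 0.22 (SE, adjusted p = 0.0121 from limma). SCL30 (Contig_17106), a scarecrow-like regulator of the GRAS family, had 487, 342 and 520.5 in Arbosana and 1027, 770.1 and 1112 in Arbequina. Arbosana was again below all 30 other arrays, which began at 963, and the difference was -1.11 ± 0.26 (adjusted p = 0.0407). DWF4 (Contig_61776), a hydroxylase of brassinosteroid synthesis, had 90.9, 78.6 and 46.8 in Arbosana and 81.6, 111 and 139 in Arbequina, with overlapping arrays and an interval of the difference from -1.38 to 0.10. SPY lost its call without Arbequina replicate 1 (adjusted p = 0.0769 from limma) and replicate 3 (adjusted p = 0.0795). SCL30 lost it without each array other than Arbosana replicate 3 (adjusted p = 0.0507 to 0.182).

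SVP (Contig_35467), a MADS-box repressor of flowering, rose, and EDL2 (Contig_40482), an F-box protein of the family of the phytochrome A signalling regulator EID1, was not called. SVP had 631, 423 and 199 in Arbosana and 58.1, 88.3 and 37.5 in Arbequina, a difference of 2.70 ± 0.46 (SE, adjusted p = 0.0163 from limma). There was no overlap, and both varieties were below all 30 other arrays, which ran from 1315 to 4375 and included the pools of both crosses. The call was lost without Arbosana replicate 2 (adjusted p = 0.0600), Arbequina replicate 1 (0.0809) or Arbequina replicate 3 (0.0794). EDL2 had 362, 391 and 418 in Arbosana and 359, 233 and 278 in Arbequina. Every Arbosana array was the higher, though replicate 1 only just, and the interval of the difference ran from -0.09 to 0.99.

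Of the 3 contigs of the growth machinery, SAL1 fell and neither IRX1 nor CDC45 was called. SAL1 (Contig_44917), a nucleotide and inositol phosphate phosphatase, had 424, 419.9 and 251 in Arbosana and 1823, 2326 and 2210 in Arbequina. All Arbosana arrays were below all 30 other arrays, the lowest of which was 488, and the difference from Arbequina was -2.57 ± 0.27 (SE, adjusted p = 0.0029 from limma). It kept its call with any 1 array left out. The study's RT-qPCR went against the arrays for this contig in the ChiCa seedlings. There they did not differ from Arbosana and differed from Chiquitita. The study proposes unlike specificity of the methods and possible gene duplication as the explanation. IRX1 (Contig_6392), a cellulose synthase subunit of secondary walls, had 1388, 1306 and 1008 in Arbosana and 792, 1234 and 569 in Arbequina, with overlap and an interval from -0.15 to 1.29. CDC45 (Contig_44219), a factor of DNA replication, had 674, 407 and 701 in Arbosana and 801, 854 and 753 in Arbequina, without overlap but with an interval from -1.08 to 0.13 and an adjusted p of 0.28 from limma.

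Of the 3 contigs without a name, Contig_29050 rose and Contig_15512 fell, while Contig_12843 had a difference of 0.02 with an interval from -0.54 to 0.58. Contig_29050 had 433, 314 and 755 in Arbosana and 185, 149 and 183 in Arbequina (difference 1.45 ± 0.33 SE, adjusted p = 0.0379 from limma). Contig_15512 had 63.8, 88.9 and 40.6 in Arbosana and 188, 121 and 203 in Arbequina (difference -1.44 ± 0.34 SE, adjusted p = 0.042 from limma). Neither pair of groups overlapped. Contig_15512 was among the lowest 25% of contigs by mean intensity over both varieties. The call of Contig_29050 was lost without Arbosana replicate 1 or any 1 Arbequina array (adjusted p = 0.0633 to 0.139), and that of Contig_15512 without Arbosana replicate 1, Arbequina replicate 1 or Arbequina replicate 3 (adjusted p = 0.073 to 0.178).

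The contigs with the largest differences carry no gene name, and their patterns over the other groups varied. The 10 largest rises in Arbosana ran from 18.4-fold to 203-fold and the 10 largest falls from 34.8-fold to 341-fold. Signals before normalization were not examined, so folds against intensities near the bottom of the range are uncertain in size. On 8 of the 10 rises and 7 of the 10 falls Picual was nearer to Arbosana. Chiquitita, taken from its replicates 2 and 3, was nearer to Arbosana on 6 of the rises and nearer to Arbequina on 9 of the falls. These counts describe contigs picked for the size of their difference.

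Contig_31969 had the largest rise. It had 4387, 5988 and 3242 in Arbosana and 29.9, 16.7 and 20.5 in Arbequina, a log2 difference of 7.66 ± 0.31 (SE, adjusted p = 4.13e-05 from limma). Arbequina shared its low level with Chiquitita replicates 2 and 3 (16.3 and 32.3) and with the array labelled simple branching replicate 3 (34.2), and every other array was at 1815 or more. Contig_22706 had 4799, 4146 and 3357 in Arbosana and 62.7, 39.5 and 54.6 in Arbequina. SILe was the other group at this low level, with 21.8 to 46.4, while the lowest other array was at 640.5. Contig_38711, Contig_46397 and Contig_20379 were low in Arbequina alone. Contig_46397 had 172, 210.4 and 222 in Arbequina, 10289, 12418 and 7717 in Arbosana, and at least 2173 on each of the 30 other arrays.

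**Figure D3:**
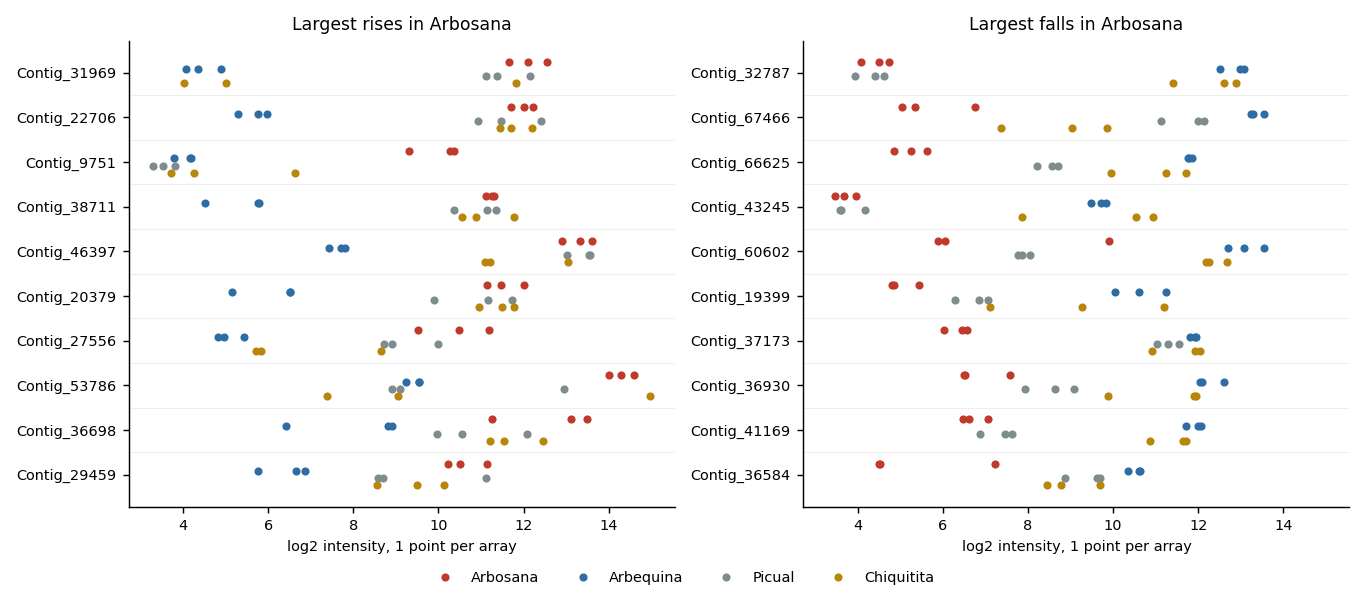
Log2 intensity of the 10 contigs with the largest rise (left) and the 10 with the largest fall (right) in Arbosana against Arbequina, 1 point per array, with Picual and Chiquitita for comparison. In several contigs, such as Contig_31969 and Contig_53786, 1 Chiquitita point lies far from the other 2: it is the array labelled replicate 1, which went against its label.

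Contig_32787 had the largest fall, with 26.5, 22.8 and 17.0 in Arbosana and 8601, 5847 and 8101 in Arbequina, a log2 difference of -8.41 ± 0.26 (SE, adjusted p = 2.64e-05 from limma). Picual shared the low level, with 15.3 to 24.7 in active and 20.5 to 47.4 in dormant tips. Chiquitita and all 7 pools were high, at 2731 or more. Contig_43245 had the same split of varieties, with 11.1, 12.8 and 15.6 in Arbosana, 12.05 to 17.9 in active Picual and 720, 909.8 and 836 in Arbequina. Contig_66625 had 38.2, 28.9 and 49.2 in Arbosana and 3477, 3705 and 3550 in Arbequina, and Picual lay between them at 297 to 416.

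In 2 of the falls Arbosana replicate 3 stood apart from its group. Contig_60602 had 59.3, 65.8 and 952 in Arbosana against 11961, 6623 and 8620 in Arbequina. Contig_36584 had 22.6, 22.9 and 149 against 1587, 1565 and 1311. Both differences exceeded the spread between arrays all the same (-5.83 ± 0.95 and -5.12 ± 0.66 SE, adjusted p = 0.0136 and 0.00647 from limma). Of the 20 contigs, 18 kept their call with any 1 array left out. Contig_36698, one of the rises, lost it without Arbosana replicate 2 (adjusted p = 0.0586) and Arbequina replicate 1 (0.0562). Contig_60602 lost it without Arbosana replicate 2 (0.0530), Arbequina replicate 1 (0.0752) and Arbequina replicate 3 (0.0662).

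Among the calls, contigs on which 1 of the varieties stood outside all 33 other arrays of the series were more often a matter of Arbosana. Chiquitita and all the pools have Arbequina ancestry, while only the Chiquitita × Arbosana pools descend from Arbosana. The part of ancestry in these counts was not tested, and the shares over all contigs are not given here. Arbosana lay above all others on 79 of the calls and below all others on 202, and Arbequina above on 47 and below on 80. Contig_23851 had 26.6, 14.99 and 38.3 in Arbosana, and the lowest other array of the series was at 567. Contig_37173 had 65.0, 87.5 and 95.6 in Arbosana and at least 1232 elsewhere, and Contig_67884 had 34.5, 64.1 and 54.4 against at least 723. On the high side, Contig_9948 had 2903, 2199 and 2736 in Arbosana and 506, 400.4 and 639 in Arbequina, and the highest array of another group was at 750.3. Contig_51739 had 2689, 6038 and 4103 in Arbosana and 989, 644 and 709 in Arbequina, with at most 1249 in the other groups. Of these, Contig_51739 lost its call without Arbequina replicate 3 (adjusted p = 0.0504 from limma).

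Of the 47 calls with Arbequina above all other arrays, the 3 with the widest gap are described here. Contig_15581 had 1019, 1087 and 1147 in Arbequina, 391.98, 152 and 61.9 in Arbosana and at most 238 elsewhere. Contig_25172 had 1103, 755 and 1345 in Arbequina against 236, 345 and 169 in Arbosana and at most 356 elsewhere. Contig_55635 had 4625, 5048 and 6376 in Arbequina, 2162, 1977 and 2453 in Arbosana and at most 2114 elsewhere. Each of the 3 calls was lost without Arbequina replicate 1 (adjusted p = 0.110, 0.0715 and 0.0747 from limma) and without Arbequina replicate 3 (0.114, 0.0684 and 0.103). Those of Contig_15581 and Contig_55635 were also lost without Arbosana replicate 2 (0.0854 and 0.0512), and that of Contig_15581 without Arbequina replicate 2 (0.0648).

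The seedling pools were used to see whether the difference between the varieties recurs between their offspring. Their 21 arrays are not used in the variety test. The 9 arrays of the Chiquitita × Arbosana pools were set against the 12 of the Picual × Arbequina pools. The p-values of this comparison measure the spread between arrays of the same pool. Spread between pools of a cross does not enter them, so they do not extend to the crosses. Chiquitita has an Arbequina parent, so both sides carry Arbequina ancestry. The sides also differ in their other parents, Chiquitita and Picual, and in the traits by which the pools were selected. The contrast cannot tell these apart from the difference between Arbosana and Arbequina. This pool contrast called 1181 contigs (3.15% of all), 622 higher (1.66%) and 559 lower (1.49%) in the Arbosana offspring. Of the 2690 variety calls, 254 were also called between the pools, 228 of them the same way (114 higher and 114 lower on the Arbosana side) and 26 the other way. The shared calls are 9.44% of the variety calls and 21.5% of the pool calls. Without the array labelled simple branching replicate 3 the pool contrast called 1490 contigs, and 323 variety calls were called the same way and 30 the other way.

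The median pool difference was 0.11 for calls higher in Arbosana, -0.09 for calls lower in Arbosana and 0.00 over all contigs, all on the log2 scale. The pool difference had the sign of the variety difference on 57.1% of the calls, and on 61.2% without the array labelled simple branching replicate 3. A positive pool difference was found for 57.4% of the higher calls, 43.2% of the lower calls and 50.5% of all contigs. Among the 505 calls over 4-fold, 63.2% had the same sign, with 98 called the same way and 7 the other way (69.7%, 120 and 9 without that array). Among the 45 over 16-fold it was 68.9%, with 15 called the same way and 0 the other way (73.3%, 18 and 0 without it). At an unadjusted p under 0.05 in the pool contrast, 3 of these 45 went the other way by limma (1 without it), and 0 did by the methods' t-test with a 2-fold minimum.

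**Figure D4:**
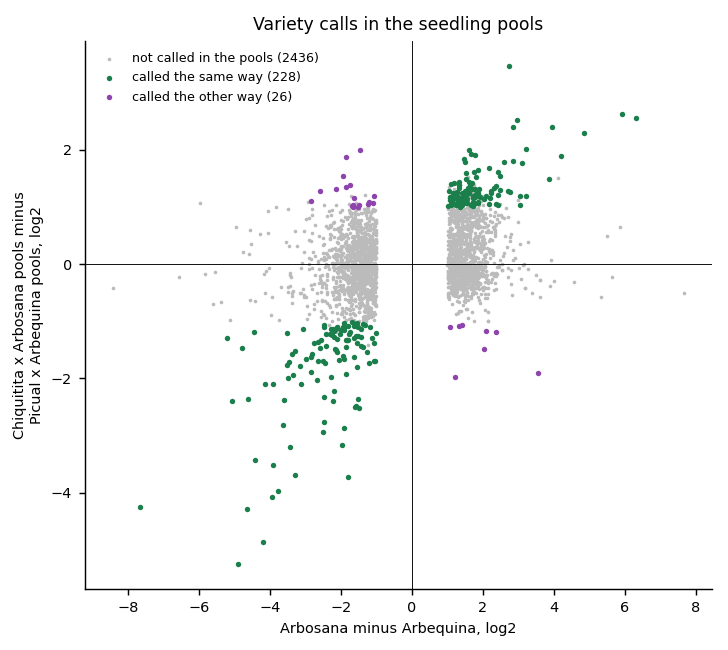
Difference between the Chiquitita × Arbosana and the Picual × Arbequina pools (vertical, log2) against the difference between Arbosana and Arbequina (horizontal, log2) for the 2690 calls, 1 point per contig. Green points (228) were called the same way in the pools, purple points (26) the other way, and the largest pool differences lie among contigs low in Arbosana.

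Of the contigs named in the study, SYD was the only variety call that was also called between the pools. It had a pool difference of 1.77 ± 0.52 on the log2 scale (SE, adjusted p = 0.0356 from limma), with intensities of 431 to 2449 in the Chiquitita × Arbosana pools and 20.6 to 667 in the Picual × Arbequina pools. These ranges overlapped. Without the array labelled simple branching replicate 3 the difference was 1.94 (adjusted p = 0.0261). SCL30 and Contig_15512 were lower in the Chiquitita × Arbosana pools by less than 2-fold (-0.43 and -0.66, adjusted p = 0.0411 and 0.0175), and without that array by -0.50 and -0.76 (adjusted p = 0.0160 and 0.00513). For SPY, SVP, TPR1, SAL1 and Contig_29050 the pool differences were -0.16, -0.07, -0.13, 0.08 and -0.14, with adjusted p from 0.630 to 0.836, and without that array -0.14, 0.01, -0.21, -0.01 and -0.24 (adjusted p from 0.429 to 0.974).

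The 5 contigs with the largest fall between the pools, among those called lower in both contrasts, were nearer to Arbosana in Chiquitita as well. Picual, the other parent of the Arbequina offspring, was nearer to Arbequina on all 5. Contig_7707 had 78.7, 40.4 and 92.6 in Arbosana and 2035, 2124 and 1790.2 in Arbequina. Its 9 Chiquitita × Arbosana arrays lay between 15.5 and 96.4 and its Chiquitita arrays between 33.8 and 68.1. Its Picual × Arbequina arrays lay between 111 and 2557, with a median of 1719, and the lowest of them was SILe replicate 3. The pool difference was -5.24 ± 0.41 (SE, adjusted p = 3.97e-07 from limma) and the variety difference -4.89 ± 0.33 (adjusted p = 0.000318). Contig_67466 had 32.8, 40.4 and 108 in Arbosana and 12048, 9650 and 10057 in Arbequina. It ran from 93.6 to 968 in the Chiquitita × Arbosana pools, from 5314 to 8996 in the Picual × Arbequina pools and from 165 to 932 in Chiquitita. Contig_20533 had 25.8, 25.8 and 16.8 in Arbosana and 402, 371 and 280 in Arbequina. Its highest Chiquitita × Arbosana array was at 31.7 and its lowest Picual × Arbequina array at 142. Contig_60710 and Contig_42251 had pool differences of -4.86 and -4.29, and Chiquitita was nearer to Arbosana on all 5. Without the 2 arrays that went against their labels, Chiquitita ran from 35.8 to 68.1 on Contig_7707 and from 527 to 932 on Contig_67466, and the Chiquitita × Arbosana pools reached at most 84.3 and 703. The pool differences of the 5 contigs were then -4.06 to -5.36, and Chiquitita was still nearer to Arbosana on all 5. Contig_60710 lost its variety call without Arbosana replicate 2 (adjusted p = 0.0591), Arbequina replicate 1 (0.0798) or Arbequina replicate 3 (0.0530), and the other 4 kept it with any 1 array left out.

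Of the 5 contigs with the largest rise between the pools among those called higher in both contrasts, Picual was nearer to Arbequina than to Arbosana on 4. Contig_9751 had 1315, 1246 and 632 in Arbosana and 17.9, 13.8 and 18.3 in Arbequina. The Picual × Arbequina pools ran from 9.02 to 14.3 and Picual from 9.89 to 14.1. The Chiquitita × Arbosana pools lay between the varieties, from 13.1 to 211 with a median of 73.5, and the lowest of them was the array labelled simple branching replicate 3. Without it they began at 28.0, and the pool difference changed from 2.63 to 2.82. Contig_67478 had 256, 354 and 249 in Arbosana and 49.2, 27.8 and 57.0 in Arbequina. Its Chiquitita × Arbosana arrays were at 261 to 572 except for that same array at 19.4, its Picual × Arbequina arrays at 14.5 to 42.3, and Chiquitita replicates 2 and 3 at 24.1 and 17.7. The pool difference was 3.47 ± 0.39 (SE) with all arrays and 3.91 ± 0.21 without that array. Contig_35762 and Contig_11915 had variety differences of 3.93 and 2.95 and pool differences of 2.40 and 2.53 (2.54 and 2.55 without that array). The exception was Contig_22706, on which Picual (1963 to 5428) and Chiquitita (2786 to 4718) lay nearer to Arbosana. On this contig the Picual × Arbequina pools were unlike each other. SILe had 21.8 to 46.4, while LILe (1888 to 3158) lay within the range of the Chiquitita × Arbosana pools (1733 to 4852). All 5 kept the variety call with any 1 array left out.

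To see whether contigs that differ with shoot activity also differed between the varieties, dormant and active Picual tips were compared on their own 6 arrays. The contrast called 2679 contigs (7.15%), 969 higher (2.59%) and 1710 lower (4.57%) in dormant tips. Of these 263 (9.82%) were called between Arbosana and Arbequina, beside 7.18% of all contigs, and they make up 9.78% of the variety calls. Of the contigs higher in dormant tips, 43 were higher and 47 lower in Arbosana. Of those lower in dormant tips, 74 were higher and 99 lower in Arbosana. The median variety difference was -0.06 on the log2 scale for the contigs higher in dormant tips, -0.01 for those lower in them and -0.06 over all contigs. The count of 263 ran from 33 without Arbequina replicate 1 to 461 without Arbosana replicate 3, where the variety calls were 356 and 5223 in all.

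Single contigs of this list differed strongly in both contrasts. Contig_3305 had 31.1, 32.98 and 30.6 in Arbosana and 222, 468 and 429 in Arbequina, and rose in Picual from 42.0 to 55.2 in active tips to 760.3 to 4681 in dormant tips. The variety difference was -3.49 ± 0.31 (SE, adjusted p = 0.00137 from limma). Contig_35762 was high in Arbosana, as given above, and in dormant Picual (564 to 6195), and low in active Picual (63.6 to 105). Contig_36813 was higher in Arbosana, with 7784, 13008 and 22459 against 2688, 3076 and 3000.07, and fell in dormant Picual to 79.5 to 121 from 1948 to 4386. Contig_33586 (variety difference 1.65), Contig_42637 (-1.84) and Contig_43169 (-2.03) were the others with the largest changes. Except for Contig_3305 and Contig_35762, these calls were lost without Arbequina replicate 1 (adjusted p = 0.0715 to 0.121) and without Arbequina replicate 3 (0.0753 to 0.111). Those of Contig_36813 and Contig_43169 were also lost without Arbosana replicate 2 (0.0527 and 0.0570).

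On the contigs called between the varieties, most other groups were nearer to Arbequina. A group counts as nearer on a contig where the mean of its log2 intensities lies closer to the Arbequina mean than to the Arbosana mean. The share was highest in LILe (73.4%), SmaD (70.5%) and Chiquitita (68.9%), and lowest in dormant Picual (50.4%). Active Picual had 64.0%, and the Chiquitita × Arbosana pools had 61.3% to 63.9%. Over all contigs the same share was 45.8% to 56.5%. All of these groups other than active and dormant Picual have Arbequina ancestry, and its part in the shares was not tested. Single arrays of a group varied widely, from 41.4% to 86.9% in SILe, from 45.5% to 85.5% in LarD and from 44.8% to 80.4% in simple branching, so that neighbours in this order do not differ beyond their spread. Without the array labelled simple branching replicate 3 the share in that pool was 47.0%, and without the array labelled Chiquitita replicate 1 the share in Chiquitita was 68.5%.

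**Figure D5:**
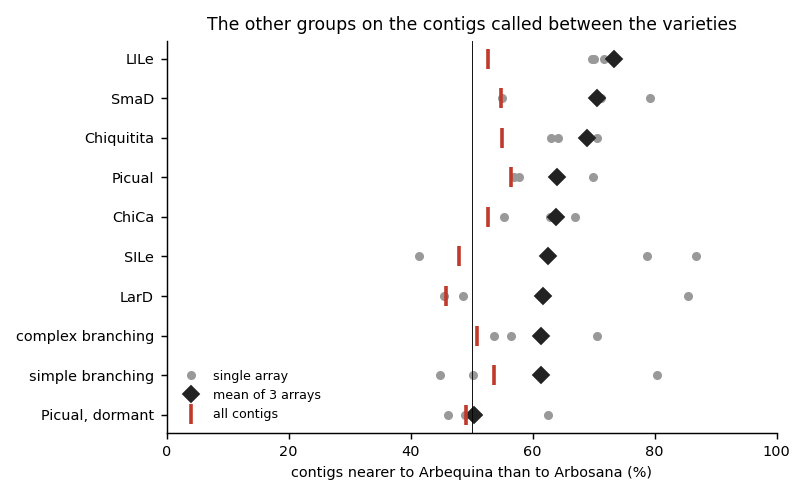
Percent of the 2690 calls on which a group lies nearer to Arbequina than to Arbosana, for the mean of its 3 arrays (diamond) and for each array (grey), with the same percent over all contigs (red bar) and a line at 50. LILe is highest at 73.4% and dormant Picual lowest at 50.4%, and the single arrays of SILe, LarD and simple branching spread over much of that range.

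Picual and Chiquitita were both nearer to Arbequina on 1419 calls (52.8%) and both nearer to Arbosana on 534 (19.9%). Picual alone was nearer to Arbosana on 434 and Chiquitita alone on 303. Without the array labelled Chiquitita replicate 1 these counts were 1391, 517, 451 and 331. These shares are descriptions, since the calls were chosen on the Arbosana and Arbequina arrays against which the groups are placed.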

How the data were processed

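RNA of 3 shoot samples per group was labelled and hybridized to NimbleGen arrays by the authors' provider, and the values were normalized with RMA per the labels (version not given in the sources used here). The deposited table holds linear intensity values per contig and array, mapped to samples by column name. The other deposited table was left out, since nothing ties its 36 value columns to samples. These values were analysed as log2. Arrays have no depth, and their number sets the precision.

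The varieties were fitted on their own 6 arrays with limma 3.58.1 (R 4.3.3; lmFit, eBayes), with no covariate and no filter, p-values adjusted by Benjamini and Hochberg over all contigs. The pool contrast compared equally weighted pool means on 21 arrays. Figures were drawn with matplotlib 3.10.9 (Python 3.11.15). The fits were tested on simulated data. Level and probe match to the sequence of a variety cannot be told apart.

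Named were the 14 contigs of the study, the 10 largest rises and falls, the 3 calls in each direction and variety farthest outside all other arrays, the 5 largest pool differences per direction among shared calls, and the 3 largest dormancy changes per direction. Members and lists were chosen with earlier results of these data known. The replicate numbers were not taken to pair the samples. Calls kept in all fits that leave out 1 array, and values without the 2 arrays that went against their labels, were added after seeing the data. Alternatives were other tests, fits, normalizations and filters, and each array left out.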

Additional observations from a re-analysis of the deposited data

How the results depend on the processing

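The direction of the variety difference held for the 47 named contigs that were called in every alternative that tested them (39 of the 47 with the lowest 25% of contigs left out). Only Contig_43041 (CLV1) and Contig_12843, neither of them called, changed sign: to 0.0581 and -0.0560 with the replicate direction as covariate (the main direction along which replicates of 9 other groups differ), 0.0548 and -0.0544 without Arbosana replicate 2, and Contig_12843 also to -0.0274 without Arbosana replicate 3 and -0.144 without Arbequina replicate 1. With 1 array left out, the first ran from -0.296 to 0.0548 and the second from -0.144 to 0.164. Calls of the 47 were lost for 21 under that covariate, for 16 each without Arbequina replicate 1 or 3, and for 0 to 9 under the others. Low intensities and the spread of the Arbosana arrays limit the precision, and the causes of the shifts below were not tested.

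With 1 array left out, the calls ran from 356 to 5223 (169 to 3068 higher, 187 to 2155 lower), the calls shared the same way with the pools from 75 to 309, the same sign share from 51.3% to 71.0%, the dormancy calls from 33 to 461, and the calls nearer to Arbequina from 65.5% to 74.1% in Chiquitita and from 51.9% to 70.7% in Picual. The calls shared by all 6 fits were 321. The covariate left 275 calls (136 higher, 139 lower), 62 shared the same way, a same sign share of 73.5%, 24 dormancy calls and 74.5% nearer to Arbequina in Chiquitita. That covariate also holds differences between groups. Array weights gave 4806 calls (2551 higher, 2255 lower), 346, 55.1% and 874 for the first 4 of these. One fit over 36 arrays gave 1716 calls (623 higher), 140 shared the same way and 64.0%. Over the 12 arrays of the varieties it gave 837 higher, 143 shared the same way and 54.2%. Both fits include the array labelled Chiquitita replicate 1. The methods' t-test gave 3612 calls, a same sign share of 53.8% and 543 dormancy calls on log2 values. On linear intensities these were 3280, 54.1% and 421. Without the fold minimum the pool contrast called 4399 contigs and 498 were shared the same way. With the lowest 25% of contigs left out, 827 calls were lower, the same sign share was 62.9% and 63.1% were nearer to Arbequina in Chiquitita. The same sign share was 65.7% with the pool contrast without SILe replicate 3, 53.3% without SmaD replicates 2 and 3, 59.3% without SILe, 60.3% without LarD and 61.2% without the array labelled simple branching replicate 3. Without ChiCa the pools had 714 calls, 150 of them shared the same way.

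Samples of the same replicate number deviated together with r of -0.153, 0.239 and 0.265, so the numbers were not taken to pair the arrays. With the replicate number as a block there were 3750 calls (1788 higher, 1962 lower), 53.1% with the same sign and 47 dormancy calls. These 47 were 14.7% of the 320 contigs that dormancy called with the block. Of all contigs, 10.01% were called between the varieties with the block. No named contig changed its call.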
